A study of Homo sapiens with 6 samples.

Results

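The genes described here encode the chains of the collagens and laminins, the proteins that build the fibrils and basement membranes between cells. They were taken by name: each gene used here whose symbol in the array annotation is that of a numbered collagen chain (COL, a type, A, a chain) or of a laminin alpha, beta or gamma chain (LAMA, LAMB or LAMC and a number). This gave 53 genes, 43 collagen and 10 laminin chains, of 18417 genes measured. Some chains of these families are not analysed here, so that counts and medians by class cover the chains measured.

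Expression was measured in U373MG, an established human glioblastoma line, with 1 array for each of 6 cultures. The cells received 4.83 nM ET-770, 1.70 nM ET-770-DR, a pyridinecarbonyl derivative of it, or 3.10 nM renieramycin M (RM), all tetrahydroisoquinoline alkaloids, each for 24 hours at its own IC50. Each compound had a DMSO array of its own, from cells kept for 24 hours with the matching volume of vehicle, so that 3 experiments held 1 compound array and 1 DMSO array each. All cultures were of 1 cell line in medium with fetal bovine serum, and the doses differed between compounds.

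Collagen chains assemble in the endoplasmic reticulum into trimers, are hydroxylated and glycosylated there, and are then secreted and crosslinked. Fibrillar collagens form the banded fibrils of connective tissue, type IV collagen forms the sheet of the basement membrane, type VI forms beaded filaments, and the FACIT collagens sit on the surface of fibrils. Laminins are trimers of an alpha, a beta and a gamma chain that polymerize in the basement membrane and bind integrins. In brain, these proteins are mostly found around vessels and the meninges, and glioblastoma cells in culture make many of them themselves.

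Values are signals on a log2 scale from robust multiarray averaging (RMA). A log2 change is the compound array minus its own DMSO array, and the fold change is the same difference on the linear scale. A single fold change rests on 1 array per arm and was not tested. What the 3 compounds shared was tested with limma, in a fit that keeps the experiments as blocks (n = 3 pairs), and p was adjusted by the Benjamini-Hochberg method over all 18417 genes. The compounds thereby served as replicates of each other, and the standard errors (SE) are moderated by limma. In a bulk culture, fewer cells that make a chain and less RNA per cell cannot be told apart.

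The median log2 change of all genes was 0.02 after ET-770, -0.03 after ET-770-DR and 0.12 after RM. RMA brings arrays normalized together to a like distribution, so this median cannot show a change in total RNA. The mean log2 signal of 7 glioma and astrocyte markers was 9.57 to 10.6 on the compound arrays and 10.1 to 10.9 on the DMSO arrays, and within an experiment it differed from DMSO by -0.30 after ET-770, -0.53 after ET-770-DR and -0.67 after RM. Among them VIM, an intermediate filament protein, was at 12.72 to 13.26 on the compound arrays and at 12.91 to 13.56 on the DMSO arrays. S100B, SOX2, SLC1A3 and CD44 fell, and GFAP, VIM and NES did not pass the test. Of 6 fibroblast and pericyte markers, whose mean was 6.43 to 7.26 on compound arrays and 6.62 to 7.39 on DMSO arrays, 2 fell, ACTA2 and FAP. None of 4 endothelial markers passed (5.52 to 6.18 on compound arrays and 5.53 to 6.29 on DMSO arrays). Of 3 leukocyte markers, at 6.98 to 7.42 on compound arrays and 6.38 to 7.31 on DMSO arrays, CD68 rose by 0.58 (SE 0.12), and of 3 epithelial markers, at 6.13 to 6.79 on compound arrays and 5.88 to 6.51 on DMSO arrays, KRT18 rose by 0.91 (SE 0.12). Within experiments the mean differed from DMSO by -0.16, -0.19 and -0.13 for the fibroblast and pericyte markers, by -0.11, -0.07 and -0.01 for the endothelial markers, by 0.11, 0.17 and 0.71 for the leukocyte markers and by 0.27, 0.25 and 0.56 for the epithelial markers, in the same order of compounds. The part of these marker genes in the changes of the matrix chains was not tested.

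Of the 53 chains, 12 fell with the 3 compounds and 0 rose. That is 10 of 43 collagen chains and 2 of 10 laminin chains, where 11.2% of all genes fell and 13.1% rose. No chain had a positive change even at an unadjusted p under 0.05, and 15 had a negative one. The shares of all genes at this unadjusted threshold were not computed, so these counts describe the chains alone. The other 41 chains did not pass the test, with mean log2 changes between -0.40 and 0.15. The median log2 change of the 53 chains was -0.14 after ET-770, -0.23 after ET-770-DR and 0.09 after RM, and -0.07, -0.15 and 0.01 after quantile normalization of the arrays. In the plot of changes by class, the chains that fell form a left-hand tail of a few genes in 5 of 8 classes, while most chains lie near zero.

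**Figure D1:**
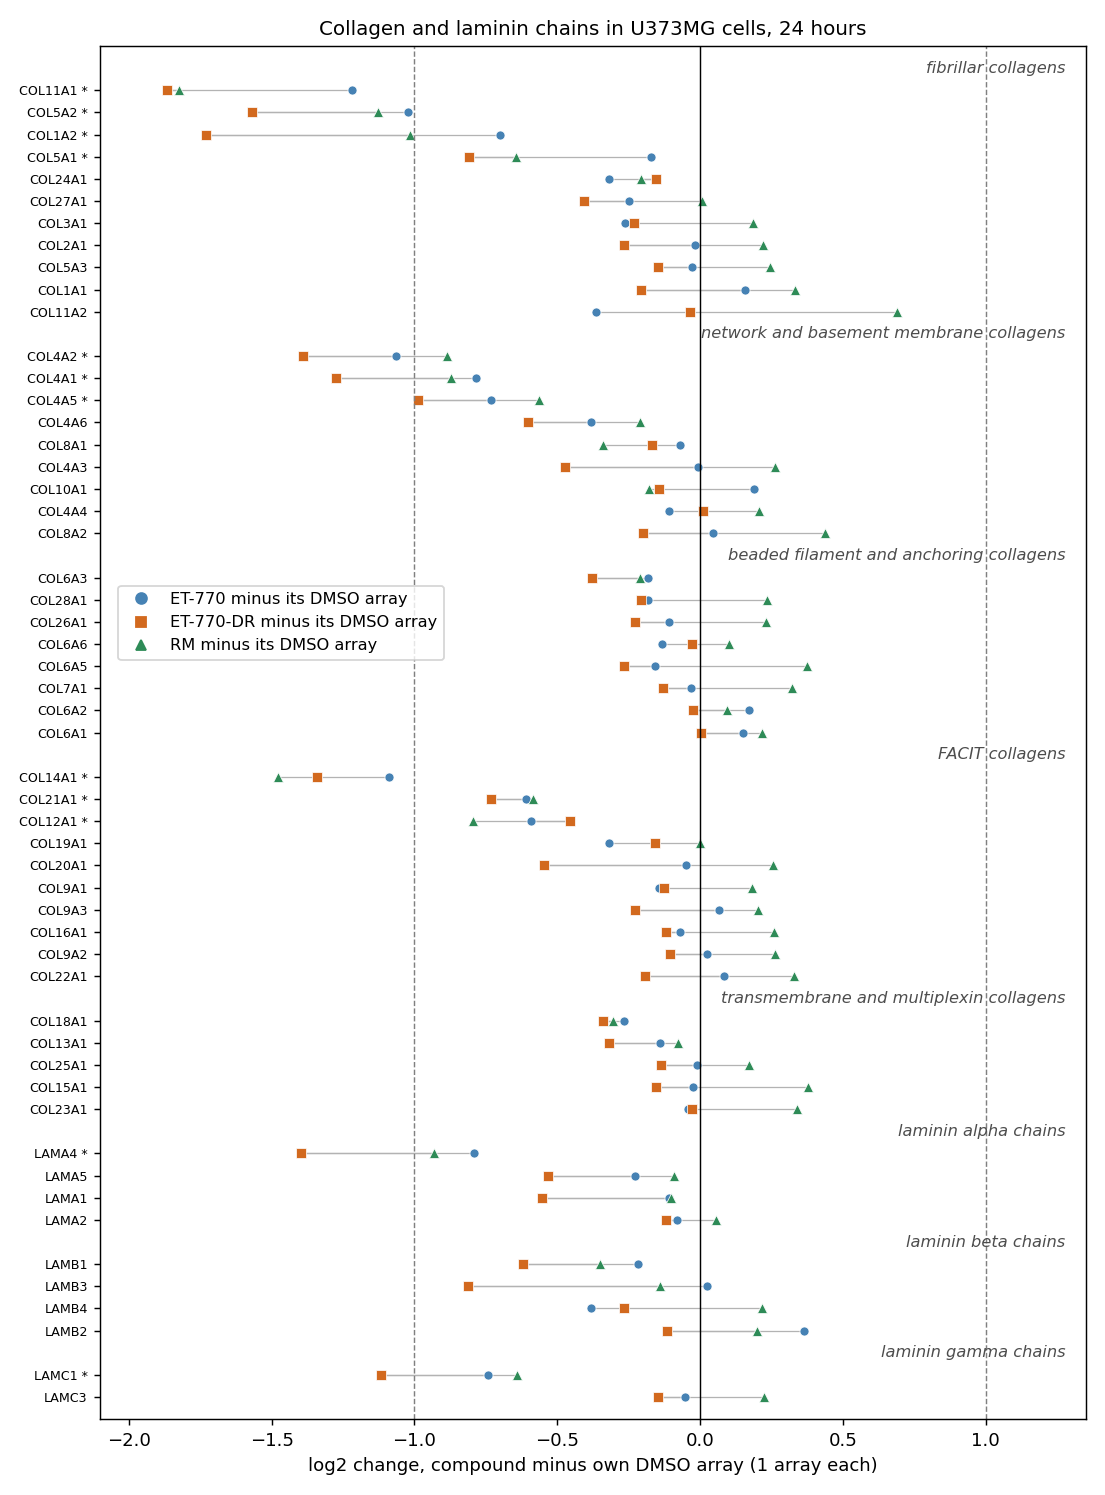
Log2 change of each of the 53 chains, compound minus the DMSO array of its experiment (1 array each), grouped by class; dashed lines mark 2-fold and asterisks the 12 chains that fell in the shared response. COL11A1 lies furthest left and no chain passes the right-hand dashed line.

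Large changes were few. More than 3-fold lower than DMSO were 0 of the 53 chains after ET-770, 2 after ET-770-DR (COL11A1 and COL1A2) and 1 after RM (COL11A1), where 2.15%, 2.12% and 1.36% of all genes were that low. COL5A2 after ET-770-DR, at 0.337-fold, lay just outside this limit. More than 2-fold lower were 4, 8 and 4 chains, where 4.68%, 4.94% and 4.28% of all genes were. COL11A1, COL14A1 and COL5A2 were more than 2-fold lower with each of the 3 compounds. No chain was over 2-fold or over 3-fold with any compound. Over 2-fold were 2.01% of all genes after ET-770, 3.84% after ET-770-DR and 0.668% after RM, and over 3-fold were 0.233%, 0.51% and 0.0434%.

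On the deposited scale the 3 compound arrays lay below all 3 DMSO arrays for 6 chains, COL11A1, COL4A1, COL4A2, COL4A5, LAMA4 and LAMC1, and for 5.34% of all genes. Apart from COL11A1, these are chains of basement membranes, and this grouping was not tested. On this scale the DMSO arrays had medians over all genes of 7.97, 7.28 and 7.40 in the ET-770, ET-770-DR and RM experiments. The list can thus depend on the scale, and the order of the arrays after quantile normalization is not given here. All 3 compound arrays lay above all DMSO arrays for 0 chains, and the share of all genes with that order was not computed.

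Among the fibrillar collagens 4 of 11 chains fell. COL11A1, the alpha 1 chain of type XI collagen, which limits the width of fibrils, changed most of all 53 chains. Its signal was 8.18 after ET-770, 6.99 after ET-770-DR and 8.49 after RM, against 9.40, 8.86 and 10.31 on the DMSO arrays of these experiments. All compound arrays were thus lower than every DMSO array on the deposited scale. The folds were 0.429, 0.274 and 0.282, and COL11A1 fell by 1.64 on the log2 scale (SE 0.15, adjusted p = 8.2e-05 from limma, n = 3 pairs). COL11A2, the alpha 2 chain of the same collagen, had a mean log2 change of 0.10 (SE 0.19, adjusted p = 0.82). It is read by 3 probes, of which a pair hold the same values.

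COL5A2 and COL1A2 fell in each experiment, although their own DMSO signals differed widely between experiments. COL5A2, a chain of type V collagen, which starts fibril assembly, was at 8.57 after ET-770, 6.98 after ET-770-DR and 10.35 after RM, against 9.59, 8.55 and 11.47 with DMSO. It fell by 1.24 (SE 0.14, adjusted p = 0.00026 from limma). COL1A2, the alpha 2 chain of type I collagen, was at 10.14, 8.14 and 11.69 with the compounds in the same order, against 10.84, 9.88 and 12.70 with DMSO. It fell by 1.15 (SE 0.18, adjusted p = 0.0016), and its folds spread from 0.301 after ET-770-DR to 0.615 after ET-770. For both genes the RM array lay above the DMSO arrays of the other experiments, so that the fall shows only within an experiment. COL5A1, the partner of COL5A2, fell by 0.54 (SE 0.15, adjusted p = 0.025). It was at 0.889-fold after ET-770, 0.571-fold after ET-770-DR and 0.640-fold after RM, and without the ET-770-DR experiment its adjusted p was 0.13.

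COL1A1, which supplies the other chain of type I collagen, did not pass the test. Its signal was 8.38 after ET-770, 7.46 after ET-770-DR and 8.34 after RM, against 8.23, 7.67 and 8.00 with DMSO. The groups overlapped on the deposited scale. The mean log2 change was 0.09 (SE 0.14, adjusted p = 0.75). The log2 change of COL1A2 was more negative than that of COL1A1 in every experiment, with differences of -0.86 after ET-770, -1.52 after ET-770-DR and -1.35 after RM. COL3A1, the chain of type III collagen, was at 0.834-fold, 0.852-fold and 1.14-fold (adjusted p = 0.72). The difference between the partner chains itself was not tested.

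**Figure D2:**
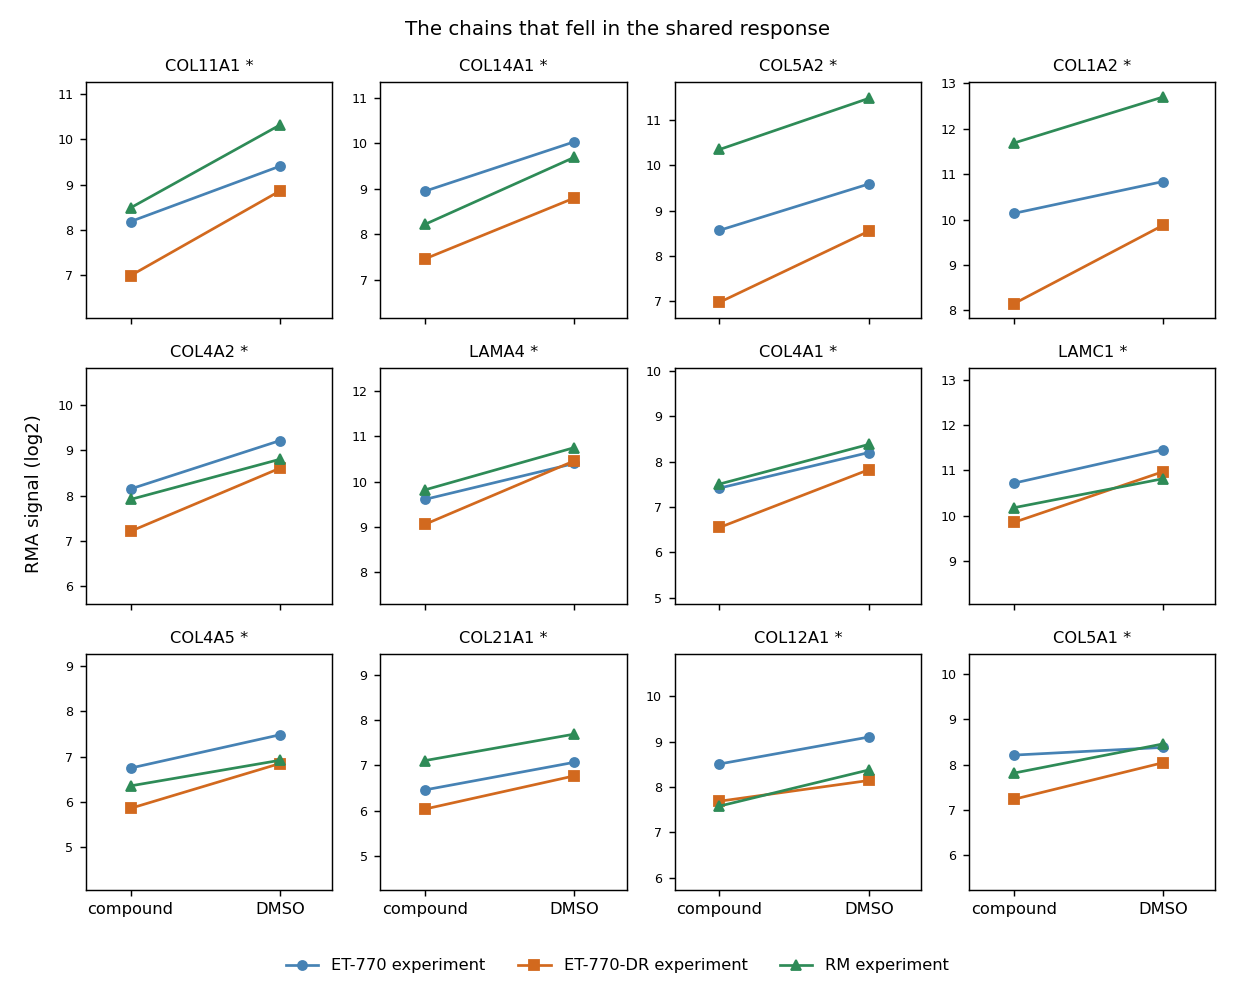
RMA signal (log2) of the 12 chains that fell, on the compound array (left) and the DMSO array (right) of each experiment; each line joins the 2 arrays of 1 experiment and every panel spans the same number of log2 units. Each line slopes down toward the compound, and COL5A2 and COL1A2 start highest in the RM experiment.

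Chains of type IV collagen and laminin made up 5 of the 12 that fell. They were 3 of the 9 chains in the class of network and basement membrane collagens and 2 of 10 laminin chains. In the other classes 4 of 11 fibrillar, 3 of 10 FACIT, 0 of 8 beaded filament and anchoring and 0 of 5 transmembrane and multiplexin collagens fell. COL4A1 and COL4A2 encode the chains of the type IV collagen that most basement membranes contain. COL4A2 was at 8.15 after ET-770, 7.22 after ET-770-DR and 7.92 after RM, against 9.21, 8.61 and 8.80 with DMSO, and fell by 1.11 (SE 0.14, adjusted p = 0.00038 from limma). COL4A1 was at 7.41, 6.55 and 7.50 with the compounds, against 8.20, 7.82 and 8.38 with DMSO, and fell by 0.98 (SE 0.14, adjusted p = 0.00080). The genes lie head to head, and their log2 changes differed by 0.28 at most in an experiment. COL4A5, a chain of type IV collagen that is mutated in Alport syndrome, was at 6.75, 5.86 and 6.36 with the compounds, against 7.48, 6.85 and 6.92 with DMSO. It fell by 0.76 (SE 0.13, adjusted p = 0.0025). COL4A6, which lies head to head with COL4A5, was at 0.768-fold after ET-770, 0.658-fold after ET-770-DR and 0.864-fold after RM (mean log2 change -0.40, SE 0.13, adjusted p = 0.052). COL4A3 and COL4A4, the last such pair, had mean log2 changes of -0.07 (SE 0.15) and 0.04 (SE 0.13) and did not pass.

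LAMA4, the alpha chain of the laminins of vessel walls, was at 9.61 after ET-770, 9.06 after ET-770-DR and 9.82 after RM, against 10.40, 10.46 and 10.75 with DMSO. On the deposited scale all compound arrays were lower than every DMSO array, while after quantile normalization the DMSO arrays spanned 0.85. It fell by 1.04 (SE 0.15, adjusted p = 0.00078 from limma). LAMC1, the gamma 1 chain, which most laminins contain, was at 10.72, 9.86 and 10.18 with the compounds, against 11.46, 10.98 and 10.82 with DMSO. It fell by 0.83 (SE 0.14, adjusted p = 0.0019), to 0.598-fold, 0.460-fold and 0.642-fold.

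The beta chains that pair with LAMC1 did not pass the test. LAMB1 was at 10.91 after ET-770, 10.22 after ET-770-DR and 10.74 after RM, against 11.12, 10.84 and 11.09 with DMSO, lower in each experiment (mean log2 change -0.40, SE 0.13, adjusted p = 0.055). LAMB2, the beta chain of muscle and kidney laminins, was at 10.03, 8.86 and 9.42 with the compounds, against 9.67, 8.97 and 9.22 with DMSO (mean log2 change 0.15, SE 0.14, adjusted p = 0.54). The mean changes of these genes lay on opposite sides of zero, and the log2 change of LAMB1 minus that of LAMB2 was -0.58, -0.50 and -0.55 after ET-770, ET-770-DR and RM. The call on LAMB1 changed with the settings: it passed after quantile normalization (adjusted p = 0.038). LAMA5, the alpha chain that many epithelial and vascular laminins use, was at 0.854-fold, 0.691-fold and 0.939-fold (adjusted p = 0.17). LAMB3, a beta chain of epithelial laminin, was at 0.570-fold after ET-770-DR and at 1.02-fold and 0.906-fold after ET-770 and RM (adjusted p = 0.24). LAMA1, LAMA2, LAMB4 and LAMC3 had mean log2 changes between -0.25 and 0.01 and did not pass.

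**Figure D3:**
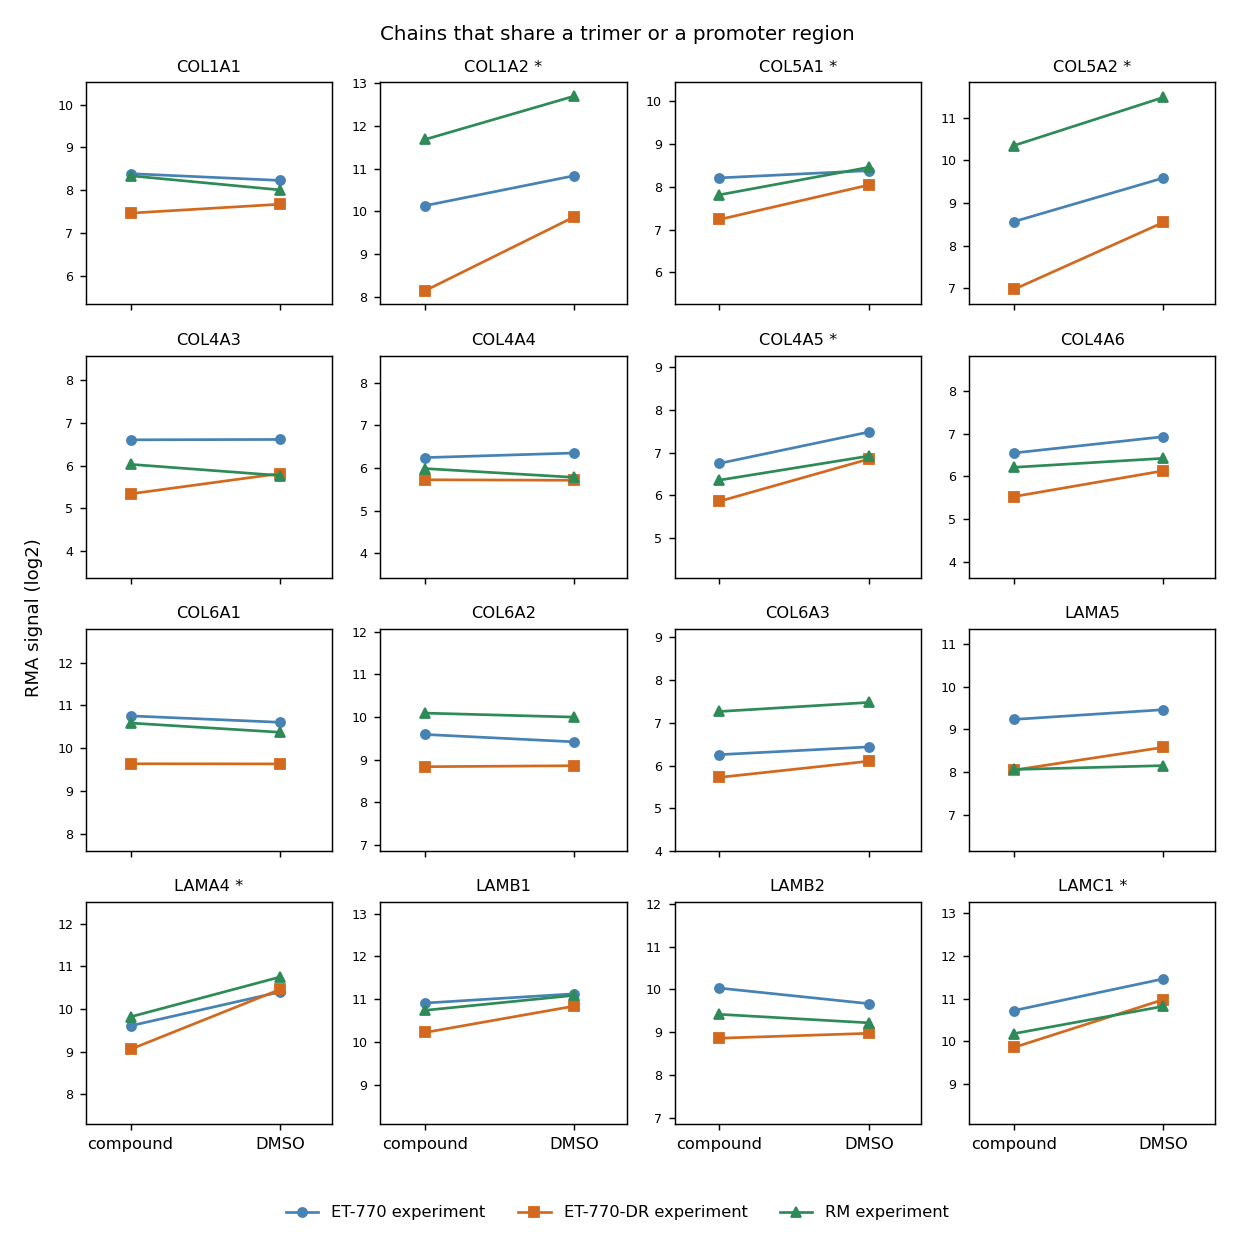
RMA signal (log2) of 16 chains that share a trimer or lie head to head, drawn as compound array (left) and DMSO array (right) of each experiment; asterisks mark chains that fell and every panel spans the same number of log2 units. COL1A2 slopes down toward the compound in every experiment and COL1A1 has no common direction, and the lines of COL6A1 and COL6A2 are nearly level.

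None of the chains of type VI collagen passed the test. COL6A1 was at 10.75 after ET-770, 9.63 after ET-770-DR and 10.59 after RM, against 10.60, 9.63 and 10.37 with DMSO (mean log2 change 0.12, SE 0.12, adjusted p = 0.59). COL6A2 was at 9.59, 8.84 and 10.09 with the compounds, against 9.42, 8.86 and 10.00 with DMSO (mean log2 change 0.08, SE 0.12, adjusted p = 0.75). COL6A3, the large chain of the same filament, had folds of 0.882, 0.769 and 0.864 (mean log2 change -0.26, SE 0.12, adjusted p = 0.18). None of the 8 beaded filament and anchoring collagens passed, COL7A1 of the anchoring fibrils of skin among them. A p that misses the threshold does not show that a chain kept its level.

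Of the 10 FACIT collagens, 3 fell. COL14A1, which binds the surface of type I fibrils, was at 8.95 after ET-770, 7.46 after ET-770-DR and 8.22 after RM, against 10.04, 8.80 and 9.69 with DMSO. It fell by 1.30 (SE 0.13, adjusted p = 0.00012 from limma), to 0.470-fold, 0.395-fold and 0.359-fold, the next largest change after COL11A1. COL21A1 was at 6.46, 6.04 and 7.11 with the compounds, against 7.07, 6.77 and 7.69 with DMSO, and fell by 0.64 (SE 0.12, adjusted p = 0.0040). Its 3 log2 changes had an SD of 0.08. COL12A1, a fibril-bound collagen of tendon and stressed matrix, was at 8.51, 7.69 and 7.58 with the compounds, against 9.10, 8.14 and 8.38 with DMSO, and fell by 0.62 (SE 0.13, adjusted p = 0.0064). Of the 5 transmembrane and multiplexin collagens, none passed. COL18A1, whose end fragment is endostatin, had folds of 0.831, 0.790 and 0.810 (mean log2 change -0.30, SE 0.12, adjusted p = 0.10).

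The class medians did not keep the order of these counts. The median of the mean log2 changes was -0.22 over 11 fibrillar collagens, -0.19 over 9 network and basement membrane collagens, -0.02 over 8 beaded filament and anchoring collagens, -0.07 over 10 FACIT collagens and 0.01 over 5 transmembrane and multiplexin collagens. It was -0.27 over 4 laminin alpha chains, -0.23 over 4 beta chains and -0.41 over 2 gamma chains, against 0.03 over all genes. The laminin beta chains, of which none passed, thus had a lower median than the fibrillar collagens. These are descriptions of the lists and not tests.

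For 10 of the 12 chains that fell, the log2 change was most negative after ET-770-DR. COL14A1 and COL12A1 are the exceptions, with their lowest change after RM. Of all 2065 genes that fell, 35.3% were lowest after ET-770-DR, and of all genes 40.8%. The difference between these shares was not tested. ET-770-DR differs from ET-770 by the added pyridinecarbonyl group, but the doses differed too, and compound and experiment cannot be told apart. Among the 41 chains that did not pass, 31 were below DMSO after ET-770 and 39 after ET-770-DR, and 29 were above DMSO after RM. The shares of all genes below or above DMSO were not computed, so these counts do not set the chains apart from other genes. Their log2 changes ran from -0.38 to 0.36 after ET-770, from -0.81 to 0.01 after ET-770-DR and from -0.35 to 0.69 after RM. The medians of these 41 chains were -0.07, -0.19 and 0.20. Those of all genes were 0.02, -0.03 and 0.12, also lowest after ET-770-DR and highest after RM.

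The DMSO arrays differed from each other in some chains by more than the compounds changed them. After quantile normalization of the 6 arrays, COL5A2 with DMSO was at 11.57 in the RM experiment, against 9.21 and 8.91 in those of ET-770 and ET-770-DR. COL1A2 with DMSO was at 12.69 in the RM experiment and at 10.48 and 10.20 in the others. COL6A3, COL11A1, COL21A1 and COL6A2 were also highest in the RM experiment, with ranges of 1.63, 1.40, 1.19 and 1.07, and COL6A5, with a range of 1.38, was lowest there. The range exceeded 1 for these 7 of 53 chains (13.2%), and for 16.7% of all genes. Experiments differed in everything that differs between independent cultures and hybridizations, and these parts cannot be told apart.

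The stretches before the starts of some of these genes are shown because COL4A1 and COL4A2, which fell together, are read outward from a shared region, and COL4A5, LAMC1 and COL11A1 fell while COL6A2 did not pass. They are RefSeq sequences of GRCh38.p14, written 5′ to 3′ on the strand of the gene (for the pair, on the strand of COL4A2), and 39 of the 53 chains have such windows. Capitals mark matches, on either strand, to CCAAT (the CCAAT box), GGGCGG (the GC box) and TATAAA (the TATA box), none of which contains another. The windows searched are the 250 bases before each annotated start. The region between the starts of COL4A1 and COL4A2 spans 126 bases (chr13:110307158-110307283), and the other stretches are the 250 bases before the start: COL4A5 at chrX:108439588-108439837 on the plus strand, LAMC1 at chr1:183023170-183023419 on the plus strand, COL11A1 at chr1:103108523-103108772 on the minus strand and COL6A2 at chr21:46097862-46098111 on the plus strand.
COL4A1 and COL4A2: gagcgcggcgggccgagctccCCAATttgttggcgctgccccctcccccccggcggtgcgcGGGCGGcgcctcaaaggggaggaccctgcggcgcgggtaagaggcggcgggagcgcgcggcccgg
COL4A5: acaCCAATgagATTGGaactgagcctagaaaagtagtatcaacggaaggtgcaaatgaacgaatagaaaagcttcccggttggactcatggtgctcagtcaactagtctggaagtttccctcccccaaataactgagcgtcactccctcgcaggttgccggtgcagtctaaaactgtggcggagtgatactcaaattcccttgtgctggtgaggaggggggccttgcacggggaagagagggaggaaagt
LAMC1: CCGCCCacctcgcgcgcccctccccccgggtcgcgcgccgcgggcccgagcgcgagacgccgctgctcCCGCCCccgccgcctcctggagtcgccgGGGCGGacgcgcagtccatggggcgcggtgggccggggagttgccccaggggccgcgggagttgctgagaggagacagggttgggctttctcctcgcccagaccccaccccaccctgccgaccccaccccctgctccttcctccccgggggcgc
COL11A1: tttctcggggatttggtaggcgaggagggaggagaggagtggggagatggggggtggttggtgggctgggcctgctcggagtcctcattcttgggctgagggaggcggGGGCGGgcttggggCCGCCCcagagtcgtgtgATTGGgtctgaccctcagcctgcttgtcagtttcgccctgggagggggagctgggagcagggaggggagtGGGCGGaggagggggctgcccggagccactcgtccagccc
COL6A2: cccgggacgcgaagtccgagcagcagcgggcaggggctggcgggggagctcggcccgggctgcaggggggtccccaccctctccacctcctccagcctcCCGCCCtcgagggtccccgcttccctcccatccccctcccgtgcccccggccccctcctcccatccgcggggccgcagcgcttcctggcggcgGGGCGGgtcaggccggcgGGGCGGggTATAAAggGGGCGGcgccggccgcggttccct

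The shared region of COL4A1 and COL4A2 holds 1 CCAAT box and 1 GC box, and the stretch before COL4A5 holds 2 CCAAT boxes and no GC box. LAMC1 has 3 GC boxes, COL11A1 has 3 GC boxes and 1 CCAAT box, and COL6A2 has 4 GC boxes and a TATA box. The starts of COL4A5 and COL4A6 lie 379 bases apart and those of COL4A3 and COL4A4 418 bases apart. The 12 windows of chains that fell belong to 9 genes, and COL1A2, COL5A2 and COL14A1 have none. Of these 12 windows, 4 hold a CCAAT box (33.3%), 8 a GC box (66.7%) and 0 a TATA box. The windows of COL4A1 and COL4A2 both count the CCAAT box of their shared region. Of 41 windows of chains that did not pass, from 30 genes, 9 hold a CCAAT box (22.0%), 23 a GC box (56.1%) and 7 a TATA box (17.1%). Over all 35116 windows the shares are 32.0%, 42.6% and 10.7%. Several windows can belong to 1 gene, and a match is a description of the letters alone.

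The other genes of the matrix pathway that passed the test were mostly lower as well. Of 26 enzymes and carriers of collagen maturation, 6 fell and 0 rose. P3H2, a prolyl 3-hydroxylase of type IV collagen, fell by 1.62 (SE 0.13, adjusted p = 3.8e-05 from limma), SEC24D, a coat protein that carries procollagen out of the endoplasmic reticulum, fell by 0.92 (SE 0.14) and PLOD2, a lysyl hydroxylase, fell by 0.82 (SE 0.14). SERPINH1, the collagen chaperone HSP47, was at 0.987-fold, 0.914-fold and 0.794-fold (adjusted p = 0.46). Of 16 genes of propeptide cleavage and crosslinking 4 fell and 0 rose, with LOXL2, a lysyl oxidase, at -0.95 (SE 0.14), ADAMTS3, a procollagen peptidase, at -0.75 (SE 0.13) and LOXL4 at -0.54 (SE 0.14).

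Of 31 matrix partners, 10 fell and 0 rose. FBN1, which encodes the microfibril protein fibrillin, fell by 2.09 (SE 0.13, adjusted p = 9.3e-06 from limma), FREM2, a basement membrane protein, fell by 2.08 (SE 0.29) and VCAN, the proteoglycan versican, fell by 1.54 (SE 0.18). NID1, nidogen, which links laminin to type IV collagen, fell by 0.97 (SE 0.15). Of 22 receptors and their partners, 11 fell and 1 rose. UTRN, which ties dystroglycan to actin, fell by 2.86 (SE 0.14), ITGA2, the alpha chain of a collagen-binding integrin, fell by 1.69 (SE 0.18) and ITGA9 fell by 1.52 (SE 0.14), while BCAM, a receptor of laminin alpha 5, rose by 0.46 (SE 0.12). Of 27 matrix proteases and inhibitors, 8 fell and 1 rose. The members of these lists were chosen with earlier results of these arrays known, so that the counts describe the lists and do not set them apart from other genes.

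**Figure D4:**
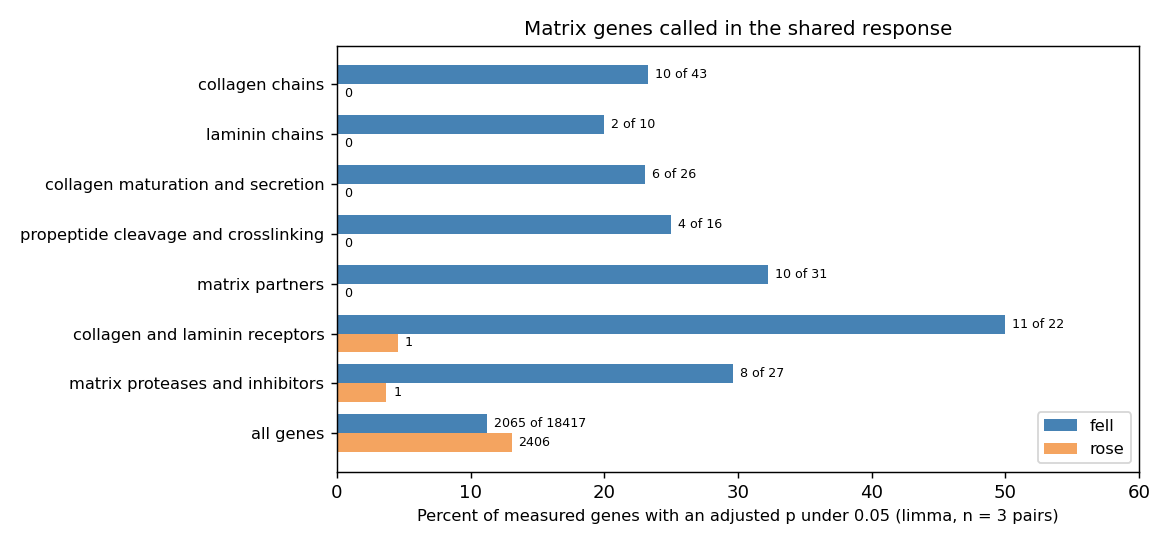
Share of the measured genes of each list that fell or rose in the shared response (adjusted p under 0.05 from limma, n = 3 pairs), with the numbers beside the bars. Of the receptors 11 of 22 fell, of the collagen chains 10 of 43, and of all genes 2065 of 18417.

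The calls depend on the pairing of each compound with its own DMSO array. Without experiment as a block, 1 of the 12 chains, COL11A1, passed (adjusted p = 0.027 from limma). Of all genes 369 then fell, against 2065 with the block.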

How the data were processed

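Total RNA of 6 cultures was labelled and hybridized by the authors to Human Gene 1.0 ST arrays, 1 array per culture. The deposited values are log2 signals from RMA, run by the authors in Affymetrix Expression Console (its version is not given in the sources used here), so the depth of reads does not apply and the number of arrays limits the precision. Whether the 3 experiments were normalized together is not given there either. The array medians over all probes were 6.63 to 7.30. ET-770 had a median of 7.30 and its DMSO array 7.28. For ET-770-DR the median was 6.65, against 6.68 with its vehicle, and for RM it was 6.77, against 6.63. Both arrays of the ET-770 experiment thus lay above all other arrays, and the reason was not tested. Deposited signals of different experiments may therefore not be on a like scale.

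Of 33297 probes, the 19460 with 1 gene symbol were averaged per gene on the log2 scale, the 1754 that name several genes and the 12083 that name none were left out, and 52 of the 53 chains are read by 1 probe. All 53 have their Entrez ID in the GRCh38.p14 gene table, which was used for names. Members of a chain family can share sequence, and cross-hybridization was not tested.

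Fold changes were taken within an experiment and counted past 3-fold in either direction, the limit in the study's methods, and past 2-fold. For the shared response limma 3.58.1 was run under R 4.3.3 (treatment plus experiment, eBayes without trend, adjusted p under 0.05), tested on simulated data. The simulation gave every gene the same noise and changed few genes, so it checks the code and not the error rate in these data. The pairing comes from the labels. Deviations from the arm means correlated at 0.83, 0.69 and 0.82 between a compound array and its own DMSO array. With the other DMSO arrays the correlation was 0.24 at most. Deviations within an arm cancel out, so a high correlation with the own DMSO array by itself lowers those with the others. p-values rest on the spread between 3 pairs, of different compounds and doses, as moderated by limma with the spread over all genes. For COL18A1, for example, the 3 log2 changes had an SD of 0.04 and the moderated SE was 0.12. Alternatives were no block, quantile normalization, median centring, a filter on genes with a mean log2 signal under 6, an eBayes trend, the brightest probe, each experiment left out, and the mean of the DMSO arrays as control. Named chains were those past 3-fold or called, and the partners of trimers and head-to-head pairs. Of each other list, up to 3 called genes with the largest changes were named, and SERPINH1, NID1, BCAM, MMP14, TIMP3, MMP3, COL3A1, COL7A1, COL11A2, COL18A1, CD68 and KRT18 were added after their values were seen. The chains and lists were chosen with earlier results of these data known. Other steps used Python 3.11.15 with pandas 2.3.3, numpy 2.4.6 and matplotlib 3.10.9.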

Additional observations from a re-analysis of the deposited data

How the results depend on the processing

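The 12 chains that fell also fell, past the threshold, under quantile normalization, median centring, the filter on dim genes, the eBayes trend and the brightest probe. These settings called 12 to 14 chains, and 1921 to 2227 of all genes, as fallen, against 2065 genes in the main fit. In total, 0 chains rose under any of the settings fitted, where 26 to 3506 of all genes did. COL4A6 and LAMB1 passed as well after quantile normalization and with the filter, and LAMB1 with the trend. Without the replicate block 1 chain and 369 of all genes fell, because differences between experiments then count as spread. Quantile normalization moved the median log2 change of the collagen chains to 0.04 after RM, against 0.17 on the deposited scale, and that of the beaded filament and anchoring collagens to 0.01, against -0.02. With each experiment left out in turn, 11 to 16 chains and 1505 to 2635 of all genes fell. Both counts were highest without the RM experiment. Without the ET-770-DR experiment COL5A1 was lost, and without the RM experiment COL4A6, LAMA5, LAMB1 and LAMB3 were gained.

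When each compound array was set against the mean of the DMSO arrays, which brings in the differences between experiments, the median log2 change of the collagen chains was 0.26 after ET-770, -0.52 after ET-770-DR and -0.11 after RM, and that of the laminin chains after ET-770 was 0.31. The medians of all genes were then 0.45, -0.25 and -0.13. Then 6 chains were more than 3-fold lower after ET-770-DR and 0 after RM, and 2 were more than 2-fold lower after RM. The shares of all genes past these limits under this control were not computed. The median of the mean log2 change of the network and basement membrane collagens was -0.58 when only genes with a mean log2 signal of at least 6 were kept, which leaves 6 of its 9 chains. Of the 53 chains 9 had a mean signal under 6, where a difference of RMA signals can understate a change.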

Other observations

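Of the matrix proteases and inhibitors, MMP16, a membrane-bound metalloproteinase, had folds of 0.129, 0.155 and 0.492 after ET-770, ET-770-DR and RM and fell by 2.22 (SE 0.30, adjusted p = 0.00068 from limma, n = 3 pairs). ADAM10, a sheddase, fell by 1.07 (SE 0.13) and RECK, a membrane inhibitor of metalloproteinases, fell by 0.96 (SE 0.13). MMP14, the membrane metalloproteinase that cleaves fibrillar collagen, fell by 0.69 (SE 0.13), and TIMP3, an inhibitor held in the matrix, fell by 0.57 (SE 0.12). MMP3, a secreted protease, was the gene of this list that rose, by 0.38 (SE 0.12, adjusted p = 0.0496).

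A probe that the annotation gives to both PNLIP and COL1A2 was left out of COL1A2. Its log2 signal was 4.62, 3.81 and 4.61 after ET-770, ET-770-DR and RM, against 4.74, 4.23 and 4.51 with DMSO. Of the 3 probes of COL11A2, the pair with equal values changed by -0.48, -0.04 and 0.89 on the log2 scale after ET-770, ET-770-DR and RM, and the third by -0.13, -0.03 and 0.28.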
